A study of Homo sapiens with 24 samples.

Results

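The genes described here encode the enzymes and regulators of cholesterol and fatty acid synthesis, 34 genes chosen by name for their place in the pathway, with earlier results of these arrays known. Of these, 31 had a probe set whose only gene symbol was theirs, out of 18055 genes measured in the same way, and each was followed on the probe set with the highest mean. CYP51A1 and FADS1 shared their probe sets with other genes and FDFT1 had no probe set under its name, so these 3 were not analysed here. Their levels were compared in HCT116, an established human colorectal cancer cell line kept in RPMI1640 with 5% serum, exposed for 72 h to inhibitors of DNA methyltransferase 1 and hybridized to 24 Affymetrix HG-U133 Plus 2.0 arrays. The treated groups, each with 2 arrays, received decitabine (DAC) at 5 µM or 120 nM, the prodrug G669071 at a higher or a lower dose, the prodrug G668684 at 7 µM or 150 nM, azacytidine (Aza) at 1500 nM or 150 nM, or the prodrug G669043 at 1500 nM or 150 nM. The control group had 4 arrays of cells given dimethyl sulfoxide (DMSO) alone, and every compound was dissolved in DMSO. For G669071 the sample titles give 63 µM and 6 µM where the source names give 120 nM and 6 nM, so its doses are called higher and lower here. The titles place the word Aza before G669043, the word ester before G668684 and phos before G669071, while the source names call each of them a prodrug. Nothing in the labels says that replicates came from separate cultures, so every p-value here rests on the spread among these arrays, which may be technical. The small number of arrays limits the precision, with a median 95% interval of 0.17 log2 units to each side of a member's fold change against DMSO and 0.20 between treated groups.

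Cells build cholesterol from acetyl-CoA by way of mevalonate, the isoprenoid diphosphates, squalene and lanosterol, and they build fatty acids from the same acetyl-CoA by carboxylation, chain elongation and desaturation. Much of this gene set is switched on by the sterol regulatory element-binding proteins (SREBPs), membrane-bound precursors that SCAP escorts out of the endoplasmic reticulum when sterols are scarce, and that the INSIG proteins hold back when sterols are plentiful. SREBPs act on promoters together with NF-Y, a factor that binds the letters CCAAT.

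All 31 genes passed the filter on low values, and their mean levels stood between the 54.1st percentile for FADS2 and the 97.8th for SCD among the genes tested. The 7 epithelial markers examined reached median levels of 8.20 to 13.9 log2 units, with EPCAM, KRT8, KRT18 and KRT19 at the top, while PTPRC of blood cells, LUM and COL3A1 of fibroblasts and ADIPOQ of adipocytes lay between 3.94 and 4.62. COL1A1 at 10, CD3E at 8.08, TTR at 8.09 and PECAM1 of endothelial cells at 8.02 were not low. Nor were DCN at 7.43, SERPINA1 at 7.03 and VWF at 7.00, and without detection calls the background of these markers is unknown. The other markers measured lay between 5.23 and 6.51. The summed signal of the marker lists ranged over the arrays from 304.7 to 386.9 for blood cells, 196.6 to 280.4 for adipocytes, 377.8 to 493.4 for endothelial cells, 462.3 to 638.9 for hepatocytes and 1055 to 1418 for fibroblasts, against 32270 to 41160 for the epithelial list. The DMSO arrays formed pairs, with correlations of 0.9967 and 0.9969 within replicates 1 and 2 and within replicates 3 and 4, and 0.9904 to 0.9912 between pairs. The 31 genes were a median of 0.09 log2 units higher in replicates 3 and 4 than in replicates 1 and 2, over a range of -0.28 to 0.57, where the median over all genes was -0.03. The excess of the 3 prime over the 5 prime beta-actin control probe set, in log2 units, tracks RNA quality; it was 0.24 and 0.15 on DMSO arrays 3 and 4, -0.03 and 0.00 on arrays 1 and 2, and its part in the results was not tested.

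Promoter sequence was available from RefSeq (GRCh38.p14) for 28 of the 31 genes, as 250 bases before to 50 bases after the annotated start. CCAAT, or ATTGG on the other strand, was present in 22 of the 28 genes (78.6%), against 41.8% of the 14136 tested genes with promoter sequence. GGGCGG or CCGCCC was in 27 of 28 (96.4%, against 67.2%), CACGTG, which reads the same on both strands, in 4 (14.3%, against 11.3%), and TCACNCCAC or GTGGNGTGA, a form of the sterol regulatory element, in 1 (3.57%, against 1.44%), the SREBF2 promoter. A match only describes these letters and is no measured binding site, and different motifs do not overlap within the stretches printed. A gene with several annotated starts was counted where any of its windows held the letters; the HMGCS1 stretch is the one of its 2 starts that held CCAAT. The 250 bases before the start of the 5 genes below are shown because SCD, STARD4, INSIG1 and HMGCS1 gave the largest differences between G669043 and Aza at 1500 nM, and because SREBF2 carried the sterol element. Each is written 5′ to 3′ on the strand of its gene, with CCAAT or ATTGG in capitals, and in SREBF2 the sterol element as well. They lie at chr10:100346983-100347232 on the plus strand (SCD), chr5:111512536-111512785 on the minus strand (STARD4), chr7:155297628-155297877 on the plus strand (INSIG1), chr5:43313413-43313662 on the minus strand (HMGCS1) and chr22:41832855-41833104 on the plus strand (SREBF2).
SCD: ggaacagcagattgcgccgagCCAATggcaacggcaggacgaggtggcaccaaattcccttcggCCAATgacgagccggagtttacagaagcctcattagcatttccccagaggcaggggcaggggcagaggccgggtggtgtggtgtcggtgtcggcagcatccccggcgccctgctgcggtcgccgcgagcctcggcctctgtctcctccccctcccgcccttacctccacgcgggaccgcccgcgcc
STARD4: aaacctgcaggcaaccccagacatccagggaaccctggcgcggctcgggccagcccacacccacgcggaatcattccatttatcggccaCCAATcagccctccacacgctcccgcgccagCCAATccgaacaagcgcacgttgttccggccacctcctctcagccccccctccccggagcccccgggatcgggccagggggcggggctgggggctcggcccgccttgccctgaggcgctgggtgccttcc
INSIG1: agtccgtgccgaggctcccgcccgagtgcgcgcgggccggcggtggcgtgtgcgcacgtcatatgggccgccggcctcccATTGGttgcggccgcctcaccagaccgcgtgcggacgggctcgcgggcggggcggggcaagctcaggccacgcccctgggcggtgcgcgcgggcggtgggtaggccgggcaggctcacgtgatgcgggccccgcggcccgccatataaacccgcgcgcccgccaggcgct
HMGCS1: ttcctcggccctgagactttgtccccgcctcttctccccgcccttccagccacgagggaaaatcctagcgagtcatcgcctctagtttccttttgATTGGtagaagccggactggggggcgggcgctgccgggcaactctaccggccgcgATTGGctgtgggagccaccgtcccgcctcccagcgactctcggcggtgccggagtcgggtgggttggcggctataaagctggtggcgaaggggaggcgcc
SREBF2: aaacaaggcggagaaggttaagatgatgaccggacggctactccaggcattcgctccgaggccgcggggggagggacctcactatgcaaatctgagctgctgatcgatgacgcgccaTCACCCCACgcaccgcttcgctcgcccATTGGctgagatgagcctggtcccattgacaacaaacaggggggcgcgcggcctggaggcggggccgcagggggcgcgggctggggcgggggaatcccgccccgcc
SCD, STARD4 and HMGCS1 each held the CCAAT letters at 2 places, beginning at -229 and -186 from the start in SCD, -161 and -130 in STARD4, and -155 and -100 in HMGCS1. INSIG1 held them at -170. In SREBF2 the sterol element began at -133 and the CCAAT letters at -106.

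Aza at 1500 nM lowered much of the pathway. Of the 31 genes 17 fell against DMSO (9.18% of all genes did), 1 rose (8.13% of all genes did), and the median log2 fold change of the 31 was -0.28 where that of all genes was 0.03. In bulk RNA, a lower level in each cell and fewer cells with the transcript cannot be told apart. The fall took in 4 of 6 genes of sterol sensing and transport, 2 of 3 at the entry into the mevalonate pathway, 2 of 6 from mevalonate to the isoprenoids, both measured genes between squalene and lanosterol, 3 of 7 from lanosterol to cholesterol and 4 of 7 of fatty acid synthesis. Of the 22 genes with the CCAAT letters 13 fell, and of the 6 without them 2 fell (ELOVL6 and SREBF1). Calls are at a Benjamini-Hochberg adjusted p under 0.05 over all 18055 genes in limma, 2-sided, and errors of fold changes are standard errors (SE).

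**Figure D1:**
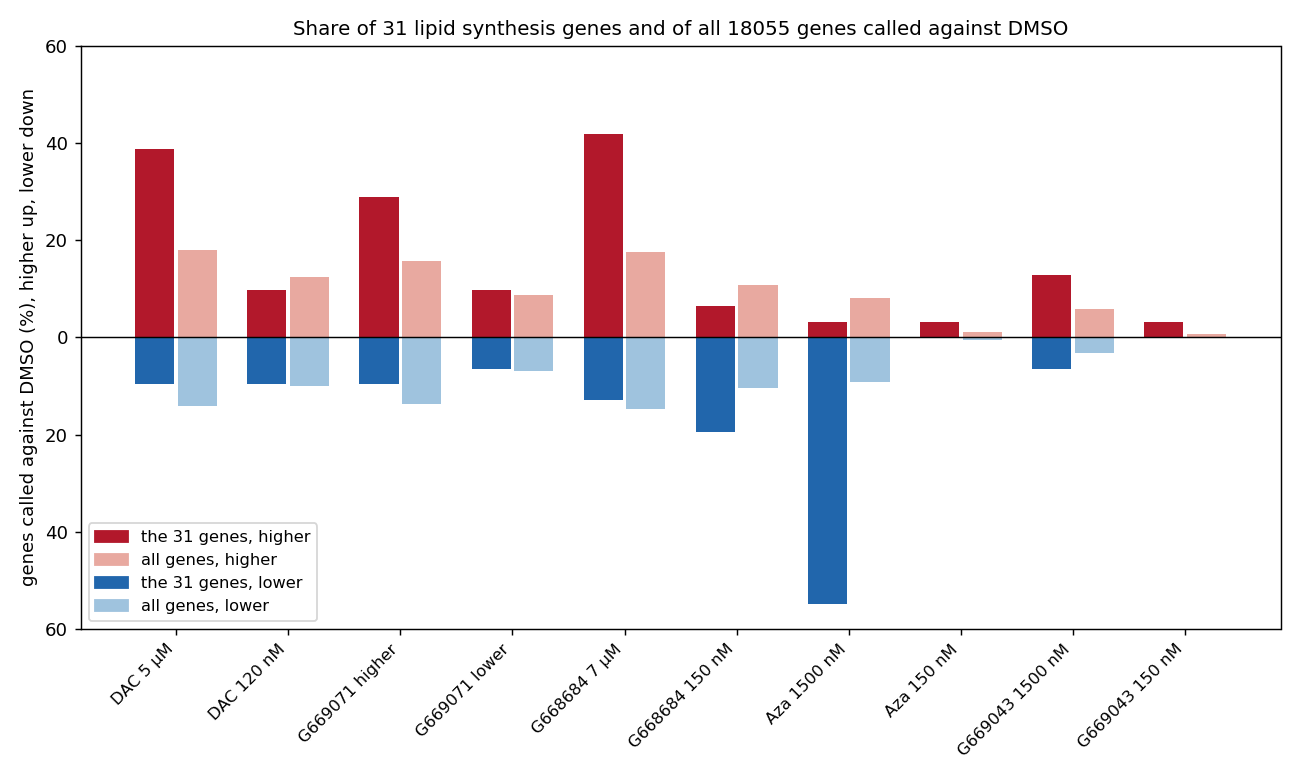
Percentage of the 31 cholesterol and fatty acid synthesis genes (dark bars) and of all 18055 genes (pale bars) called against DMSO in each treated group, with genes called higher above the line and genes called lower below it. The dark bar below the line is longest for Aza at 1500 nM, where 17 of 31 genes fell against 9.18% of all genes.

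SCD, the desaturase that makes monounsaturated fatty acids and the brightest of the 31 genes, had the largest fold change. Its log2 levels were 11.31 and 11.20 with Aza at 1500 nM, against 12.55, 12.61, 12.77 and 12.86 in DMSO. Both Aza arrays lay far below the lowest DMSO array, and SCD fell by 1.44 ± 0.08 (SE) on the log2 scale, to 0.368 of its DMSO level (adjusted p = 3.1e-10). The other 3 SCD probe sets gave fold changes of -1.07 to -1.34.

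Among the other fatty acid genes, ELOVL6, which elongates palmitate, stood at 10.17 and 9.99 with Aza at 1500 nM, against 10.82, 10.76, 11.06 and 11.02 in DMSO. It fell by 0.83 ± 0.10 (adjusted p = 1.3e-05). ACACA, the acetyl-CoA carboxylase of the committing step, stood at 9.38 and 9.25, against 9.96, 10.06, 9.97 and 10.10 in DMSO, and fell by 0.71 ± 0.08 (adjusted p = 6.3e-06). The arrays of the 2 groups did not overlap for either gene, but the second ACACA probe set gave 0.10. ACLY, which supplies cytosolic acetyl-CoA from citrate, fell by 0.30 ± 0.08 (adjusted p = 0.017). FASN, the fatty acid synthase itself, averaged 8.87 with Aza and 9.02 in DMSO (-0.16 ± 0.09, adjusted p = 0.31), and ACSS2 and FADS2 had fold changes of 0.09 and -0.03, all with overlapping arrays.

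Within sterol sensing and transport, STARD4, a carrier that moves cholesterol between membranes, stood at 8.94 and 8.83 with Aza at 1500 nM, against 9.71, 9.59, 9.83 and 9.78 in DMSO. It fell by 0.84 ± 0.08 (adjusted p = 3.1e-07). INSIG1 stood at 9.54 and 9.28, against 9.80, 10.06, 10.56 and 10.44 in DMSO, and fell by 0.80 ± 0.16 (adjusted p = 0.0016). Both Aza arrays lay below all DMSO arrays, and the DMSO arrays themselves were spread by pair, with replicates 3 and 4 on average 0.57 above replicates 1 and 2. SREBF1, which encodes the SREBP best known for fatty acid genes, stood at 8.47 and 8.45, against 8.87, 8.93, 8.78 and 8.58 in DMSO (fold change -0.33 ± 0.10, adjusted p = 0.025). SREBF2, which encodes the SREBP best known for cholesterol genes, stood at 8.0 and 8.08, against 8.48, 8.35, 8.23 and 8.21 in DMSO (-0.28 ± 0.08, adjusted p = 0.025). Both fell with no overlap, by less than STARD4 or INSIG1. With the mean of its probe sets SREBF2 gave -0.19 (adjusted p = 0.12). Against DMSO replicates 3 and 4 alone neither was called, at -0.22 for SREBF1 (adjusted p = 0.12) and -0.18 for SREBF2 (adjusted p = 0.11), and each also lost its call without either Aza array. SCAP stood at 8.57 and 8.37, against 8.39, 8.51, 8.36 and 8.24 in DMSO (0.09 ± 0.09, adjusted p = 0.55), and INSIG2 at 8.33 and 8.12, against 8.22, 8.38, 8.62 and 8.64 in DMSO (-0.24 ± 0.14, adjusted p = 0.28). For these last genes the arrays overlapped.

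**Figure D2:**
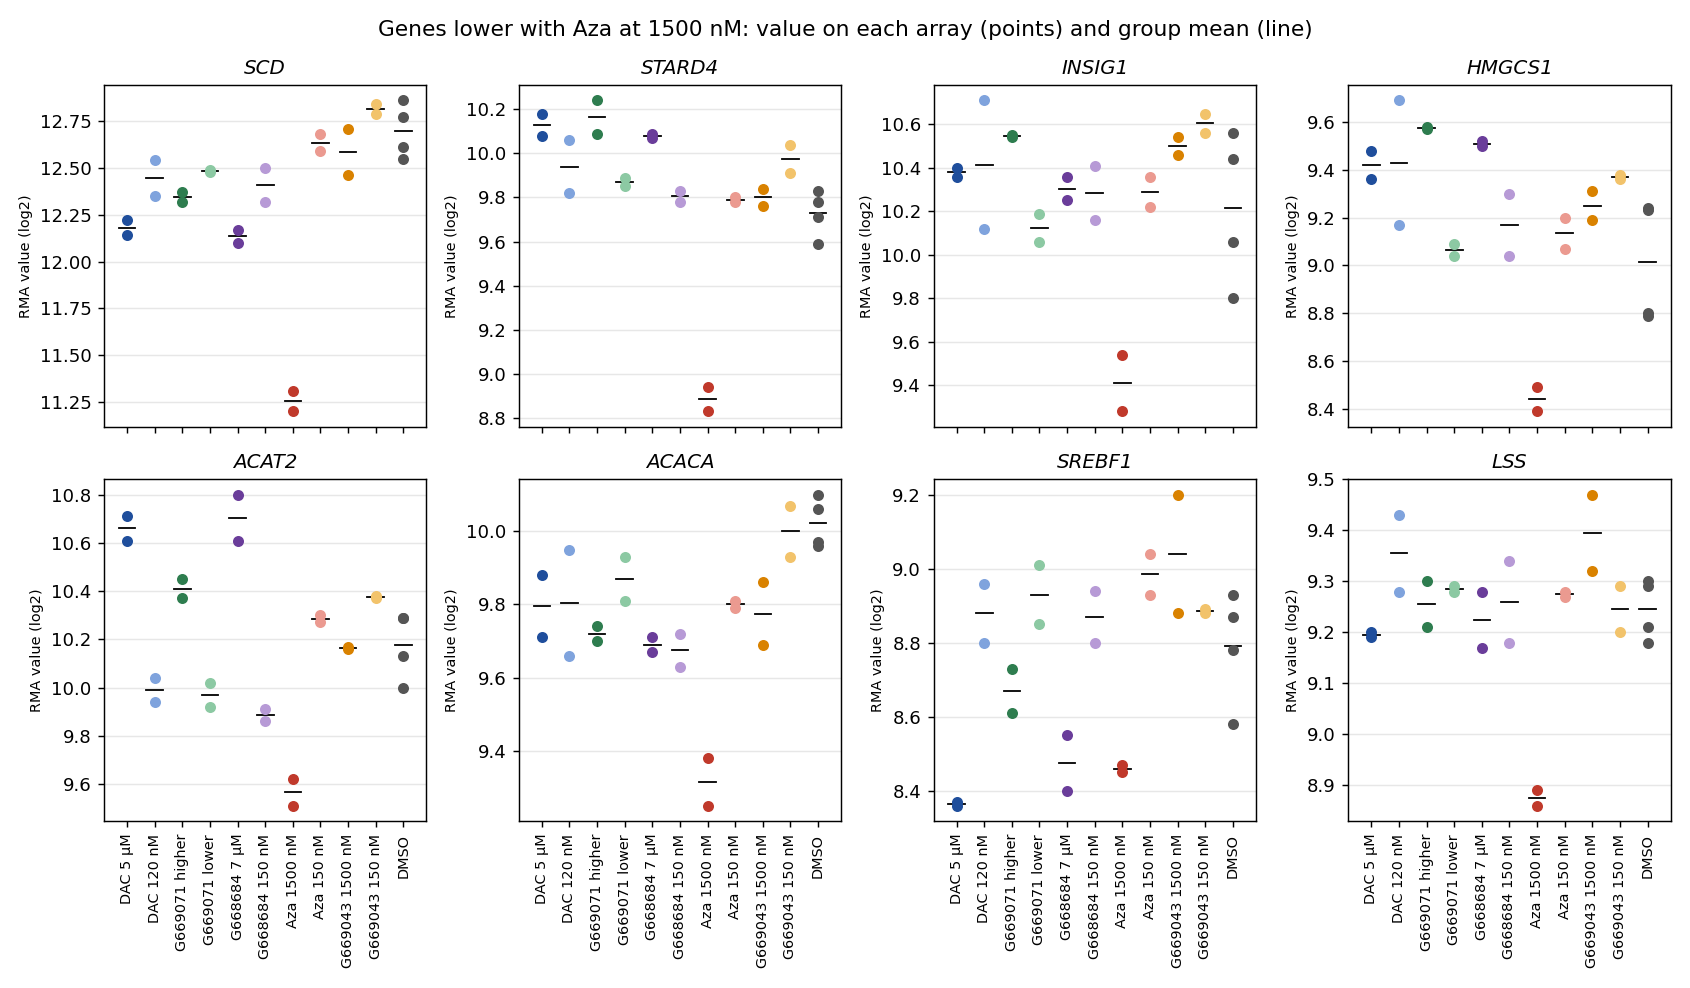
Level of 8 genes on each array (points, log2 RMA value) with the group mean (line), for the 10 treated groups and DMSO at the right. Both arrays of Aza at 1500 nM lie below every DMSO array in all 8 panels, with SCD at 11.31 and 11.20 against 12.55 to 12.86 in DMSO.

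Early steps of the mevalonate pathway fell as well. ACAT2, the thiolase that joins acetyl-CoA units, averaged 9.56 with Aza at 1500 nM and 10.18 in DMSO and fell by 0.61 ± 0.08 (adjusted p = 1.7e-05), and HMGCS1, which forms HMG-CoA, averaged 8.44 and 9.01 and fell by 0.57 ± 0.13 (adjusted p = 0.0046). AACS, which activates acetoacetate, gave -0.24 ± 0.12 (adjusted p = 0.22). Of the isoprenoid enzymes, GGPS1, the geranylgeranyl diphosphate synthase, fell by 0.45 ± 0.08 and IDI1, the isopentenyl diphosphate isomerase, by 0.29 ± 0.05 (adjusted p = 0.00083 and 0.00056). MVD, FDPS, PMVK and MVK, which phosphorylate, decarboxylate or condense the intermediates, had fold changes of -0.17, -0.14, -0.08 and 0.11 and none was called.

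Downstream, LSS, the cyclase that yields lanosterol, fell by 0.37 ± 0.07 (adjusted p = 0.00083), although its dimmer probe sets gave -0.11 and 0.00 and the mean of all 3 gave -0.16 (adjusted p = 0.14). SQLE, the squalene epoxidase, fell by 0.24 ± 0.08 (adjusted p = 0.042). HSD17B7, a sterol ketoreductase, fell by 0.46, MSMO1, the methylsterol monooxygenase, by 0.41, and DHCR7, the reductase of 7-dehydrocholesterol, by 0.35. TM7SF2, a sterol reductase, went the other way, averaging 8.24 with Aza and 7.96 in DMSO (0.29 ± 0.07, adjusted p = 0.0053). NSDHL, SC5D and EBP, a dehydrogenase, a desaturase and an isomerase of the late steps, had fold changes of -0.15, -0.15 and 0.06 and none was called. Of the 18 calls with Aza at 1500 nM 10 kept their side of the threshold with each array left out, and without Aza replicate 2 the count was 10. SQLE, MSMO1, ACLY and HMGCS1 lost their calls against DMSO replicates 1 and 2 alone, with fold changes of -0.11, -0.19, -0.21 and -0.35 (adjusted p = 0.32, 0.33, 0.13 and 0.052).

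**Figure D3:**
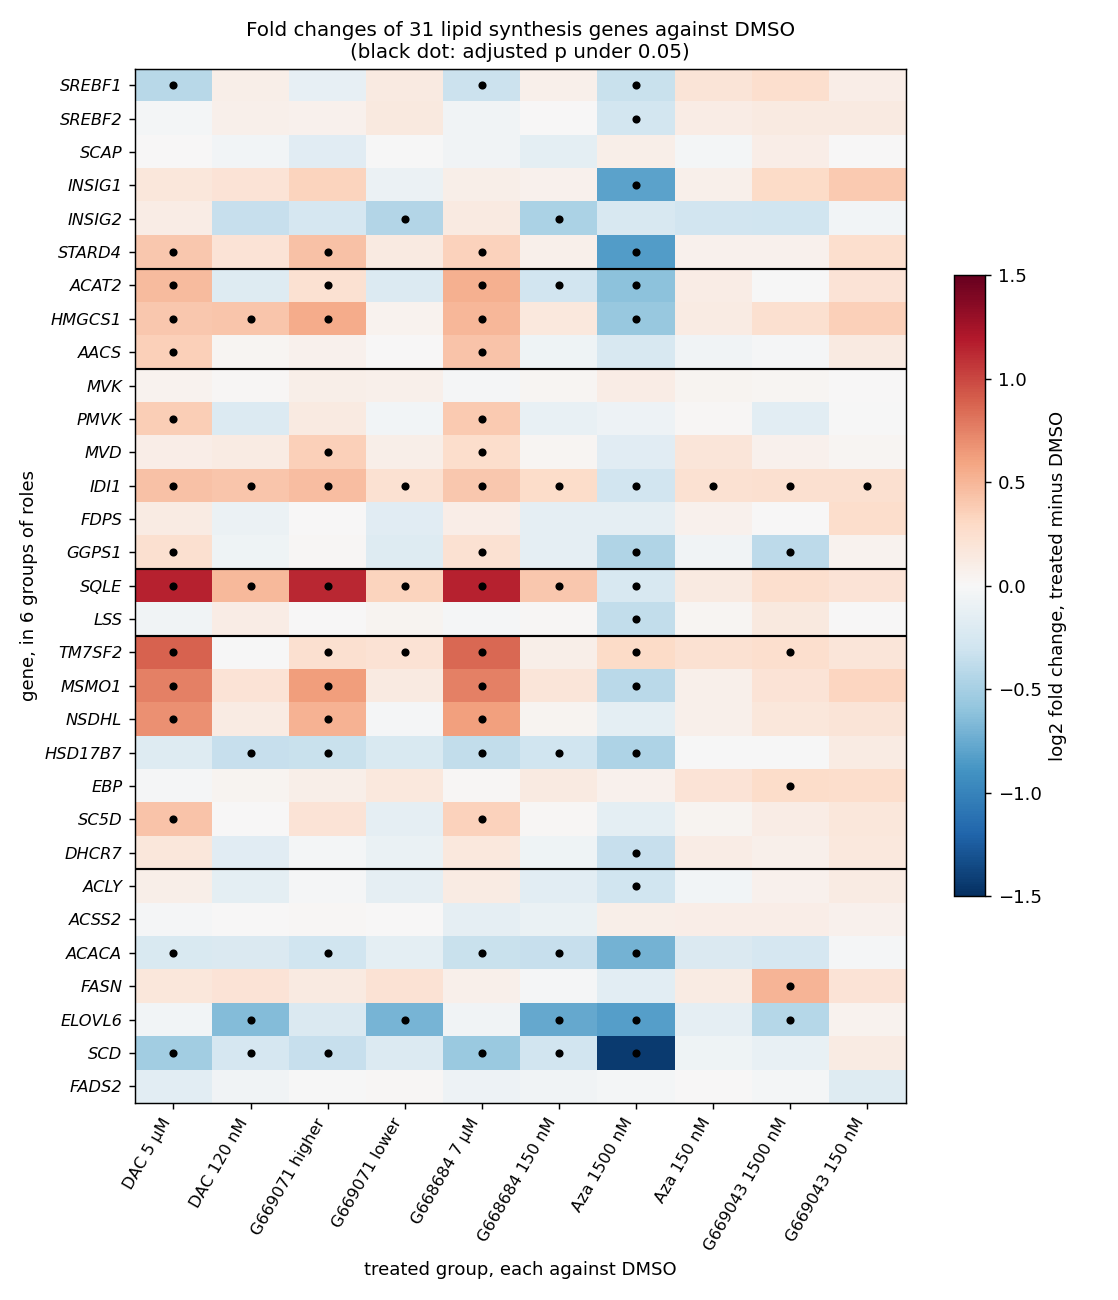
Log2 fold change of each of the 31 genes (rows, in 6 groups of roles from sterol sensing at the top to fatty acid synthesis at the bottom) in each treated group against DMSO (columns), blue for lower and red for higher, with a black dot where the adjusted p was under 0.05. The Aza 1500 nM column is blue for 26 of 31 genes, while SQLE is red in the 6 columns of DAC, G669071 and G668684.

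At 150 nM, Aza left the pathway near the DMSO level. Only IDI1 was called, 1 gene higher (1.03% of all genes were) and none lower (0.46% of all genes were) by limma, and the median fold change was 0.06. IDI1 stood at 11.38 and 11.34 with Aza at 150 nM, against 11.08, 11.09, 11.17 and 11.18 in DMSO (0.23 ± 0.05, adjusted p = 0.032). Set against each other, the doses differed for 16 genes, all lower at 1500 nM (3.38% of all genes were lower and 2.41% higher). SCD stood at 11.31 and 11.20 at 1500 nM, against 12.59 and 12.68 at 150 nM (-1.38 ± 0.10, adjusted p = 1.2e-08). STARD4 stood at 8.94 and 8.83, against 9.78 and 9.80 at 150 nM (-0.90 ± 0.09, adjusted p = 2.5e-06), and INSIG1 at 9.54 and 9.28, against 10.22 and 10.36 (-0.88 ± 0.19, adjusted p = 0.0078). No DMSO array enters these differences, although the spread behind their p-values is estimated over all arrays. The arrays of the doses did not overlap for any of the 3 genes. ACAT2 (-0.72), HMGCS1 (-0.69), ELOVL6 (-0.69), IDI1 (-0.52), SREBF1 (-0.52) and MVD (-0.35) were among the others. The count was 6 without replicate 2 of Aza at 1500 nM and 7 without replicate 2 of Aza at 150 nM.

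G669043 was given at both labelled doses of Aza, and these 2 dose-matched pairs were compared, with p-values adjusted over all genes within each; G668684 at 150 nM was not set against them. At 1500 nM G669043 and Aza differed for 16 of the 31 genes. All 16 were higher with G669043 (1.47% of all genes were) and 0 were lower (0.659% of all genes were), with a median difference of 0.40 log2 units where that of all genes was -0.03. The genes were chosen with earlier results of these arrays known, so these counts are a description. By role, 4 of 6 genes of sterol sensing and transport were higher, 2 of 3 at the entry into the mevalonate pathway, 1 of 6 to the isoprenoids, both between squalene and lanosterol, 4 of 7 from lanosterol on and 3 of 7 of fatty acid synthesis. SCD stood at 12.46 and 12.71 with G669043, against 11.31 and 11.20 with Aza, a difference of 1.33 ± 0.10 or 2.51-fold (adjusted p = 3.3e-07). INSIG1 stood at 10.46 and 10.54, against 9.54 and 9.28 with Aza (1.09 ± 0.19, adjusted p = 0.0048), and STARD4 at 9.76 and 9.84, against 8.94 and 8.83 (0.92 ± 0.09, adjusted p = 1.8e-05). The arrays of the 2 compounds did not overlap for these genes.

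HMGCS1 stood at 9.19 and 9.31 with G669043 at 1500 nM, against 8.49 and 8.39 with Aza at the same dose (0.81 ± 0.15, adjusted p = 0.0089). FASN stood at 9.35 and 9.72, against 8.95 and 8.78 with Aza (0.67 ± 0.11, adjusted p = 0.0024), although its dimmer second probe set gave -0.17. SREBF1 stood at 8.88 and 9.20, against 8.47 and 8.45 with Aza (0.58 ± 0.11, adjusted p = 0.011), and SREBF2 at 8.36 and 8.54, against 8.0 and 8.08 (0.41 ± 0.10, adjusted p = 0.029). On these probe sets the SREBF genes differed in the same direction as the called enzymes. In size SREBF1 lay between ACAT2 and IDI1, and SREBF2 between DHCR7 and NSDHL. The other SREBF2 probe sets gave 0.30 and -0.15, and the mean of all its probe sets gave 0.19 (adjusted p = 0.35). The remaining called genes were MSMO1 (0.62), ACAT2 (0.60), IDI1 (0.54), LSS (0.52), SQLE (0.49), ACACA (0.46), HSD17B7 (0.44), DHCR7 (0.43) and NSDHL (0.33). With the mean of their probe sets FASN gave 0.25 and LSS 0.28 (adjusted p = 0.16 and 0.1). Of the genes with the CCAAT letters 12 of 22 were higher with G669043, and of those without 1 of 6, SREBF1. With DAC at 5 µM against DMSO 8 of 22 with the letters and 2 of 6 without them were higher, and no difference between the promoter groups was tested.

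**Figure D4:**
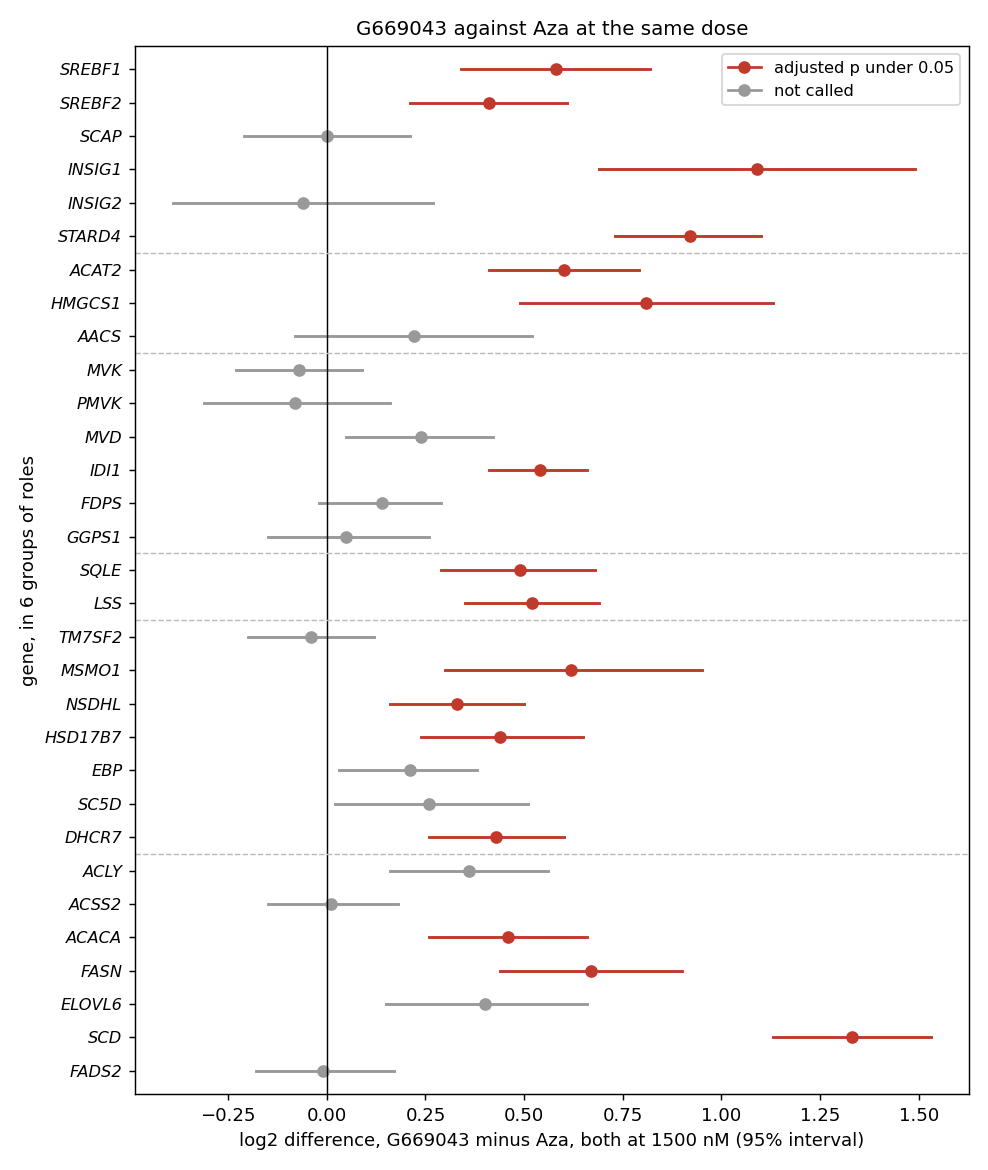
Log2 difference between G669043 and Aza at 1500 nM for each of the 31 genes (points) with its 95% interval (lines), in 6 groups of roles from sterol sensing at the top to fatty acid synthesis at the bottom, red where the adjusted p was under 0.05. SCD at 1.33 and INSIG1 at 1.09 lie farthest to the right, and the 15 genes in grey include SCAP at 0.00 and FADS2 at -0.01.

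For the other 15 genes the difference missed the threshold, which does not show that the compounds act alike on them. ACLY gave 0.36 (95% interval 0.16 to 0.56, adjusted p = 0.056) and ELOVL6, at 10.41 and 10.56 with G669043 against 10.17 and 9.99 with Aza, gave 0.40 (0.15 to 0.66, adjusted p = 0.092). The differences closest to 0 were those of SCAP (8.36 and 8.58 with G669043 against 8.57 and 8.37 with Aza, interval -0.21 to 0.21), ACSS2 (-0.15 to 0.18), FADS2 (-0.18 to 0.17) and TM7SF2 (-0.20 to 0.12). INSIG2, at 8.15 and 8.18 with G669043 against 8.33 and 8.12 with Aza, had an interval of -0.39 to 0.27. The calls of STARD4, ACAT2, IDI1 and SCD stood with each array left out, although IDI1 gave 0.00 (adjusted p = 0.99) on its probe set not marked as matching several transcripts, and the count of called genes was 5 without Aza replicate 2 and 4 without G669043 replicate 2. That G669043 array had a 3 prime excess of beta-actin of 0.34, the highest of the 24, and its part in the differences was not tested. The IDI1 probe set that gave 0.00 had a mean of 5.41, near the filter of 5. ACAT2 and SCD had only marked probe sets. The second bright IDI1 probe set gave 0.49 and a dimmer marked one -0.20.

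Against DMSO, G669043 at 1500 nM raised 4 of the genes (5.88% of all genes) and lowered 2 (3.25% of all genes). FASN stood at 9.35 and 9.72, against 9.13, 9.05, 9.09 and 8.82 in DMSO (0.51 ± 0.09, adjusted p = 0.0014). With the mean of its probe sets FASN gave 0.19 (adjusted p = 0.14). ELOVL6 stood at 10.41 and 10.56, against 10.82, 10.76, 11.06 and 11.02 in DMSO (-0.43 ± 0.10, adjusted p = 0.011), and GGPS1 at 9.53 and 9.45, against 9.64, 9.93, 9.97 and 9.99 (-0.39 ± 0.08, adjusted p = 0.005). EBP (0.27), TM7SF2 (0.25) and IDI1 (0.24) made up the rest. With the mean of their probe sets EBP gave 0.09 and IDI1 0.04 (adjusted p = 0.47 and 0.75). With Aza at 1500 nM ELOVL6, GGPS1 and TM7SF2 had fold changes of -0.83, -0.45 and 0.29, against the same DMSO arrays. SCD (-0.11), STARD4 (0.07), INSIG1 (0.29), SREBF1 (0.25) and SREBF2 (0.13) were not called against DMSO, with arrays inside or overlapping the DMSO range. No call stood with each array left out, and the count was 2 without G669043 replicate 1 and 1 without replicate 2.

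At 150 nM none of the 31 genes was called between G669043 and Aza when all arrays shared the fit, whereas 7 were when only these 4 arrays were fitted. In the shared fit none was called higher (0.0111% of all genes were) or lower (0.0554% of all genes were) by limma, FDPS and FADS2 had an unadjusted p under 0.05 (0.015 and 0.033), and the median difference was 0.09. For SCD, at 12.84 and 12.79 with G669043 against 12.59 and 12.68 with Aza, the 95% interval of the difference was -0.02 to 0.38, and for STARD4, at 10.04 and 9.91 against 9.78 and 9.80, it was 0.00 to 0.37. INSIG1, at 10.56 and 10.65 with G669043 against 10.22 and 10.36 with Aza, had an interval of -0.08 to 0.71. The arrays of the compounds did not overlap for these 3 genes, but none of the differences passed the test. Against DMSO only IDI1 was called with G669043 at 150 nM, higher at 11.35 and 11.38, against 11.08, 11.09, 11.17 and 11.18 in DMSO (0.24 ± 0.05, adjusted p = 0.045, where 0.709% of all genes rose and 0.161% fell). That count reached 13 against DMSO replicates 1 and 2 alone and 3 without DMSO replicate 3, and was 0 without DMSO replicate 1 or without either G669043 array. Between the G669043 doses, ELOVL6 (10.41 and 10.56 at 1500 nM, against 11.01 and 10.92 at 150 nM, -0.48 ± 0.12, adjusted p = 0.029) and GGPS1 (9.53 and 9.45, against 9.91 and 9.96, -0.45 ± 0.10, adjusted p = 0.012) were lower at the higher dose (2.18% of all genes were, and 1.69% were higher). Both lost their calls with 1 array left out, the count then being 0 or 1.

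With DAC at 5 µM several genes of the sterol branch rose, led by SQLE, and SCD fell. Of the 31 genes 12 rose (18% of all genes did), 3 fell (14.2% of all genes did), and the median fold change was 0.12 where that of all genes was -0.04. The share that fell is below that of all genes. The genes that rose belong to the mevalonate and sterol steps and to sterol transport (all 3 at the entry into the mevalonate pathway, 3 of 6 to the isoprenoids, SQLE, 4 of 7 from lanosterol on, and STARD4), and of the 7 fatty acid genes none rose and 2 fell. In the same branch MVK (0.05), MVD (0.10), FDPS (0.12), LSS (-0.05), HSD17B7 (-0.19), EBP (-0.02) and DHCR7 (0.17) were not called.

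SQLE, the squalene epoxidase, had log2 levels of 11.42 and 11.47 with DAC at 5 µM, against 10.19, 10.13, 10.37 and 10.47 in DMSO. Both DAC arrays lay above all DMSO arrays, and the rise was 1.16 ± 0.08 or 2.23-fold (adjusted p = 6.9e-10). TM7SF2 stood at 8.88 and 8.80, against 8.01, 7.97, 7.85 and 8.0 in DMSO (0.88 ± 0.07, adjusted p = 3.9e-09), and MSMO1 at 11.60 and 11.51, against 10.50, 10.64, 11.06 and 10.96 (0.76 ± 0.14, adjusted p = 0.00016). No array of the 2 groups overlapped for these genes. NSDHL (0.68), ACAT2 (0.48), IDI1 (0.44), SC5D (0.43), HMGCS1 (0.41), STARD4 (0.40), PMVK (0.37), AACS (0.36) and GGPS1 (0.24) also rose. SCD stood at 12.14 and 12.22, against 12.55 to 12.86 in DMSO (-0.52 ± 0.08, adjusted p = 5e-05), SREBF1 at 8.37 and 8.36, against 8.58 to 8.93 (-0.42 ± 0.10, adjusted p = 0.0021), and ACACA gave -0.23 ± 0.08 (adjusted p = 0.041). SREBF2 (8.33 and 8.24), SCAP (8.42 and 8.33), INSIG1 (10.36 and 10.40) and INSIG2 (8.45 and 8.70) were within or close to the DMSO range, with fold changes of -0.03, 0.00, 0.17 and 0.11 and no call. IDI1, SC5D, GGPS1, ACAT2, AACS, PMVK, TM7SF2 and SCD rest on probe sets marked as able to match more than 1 transcript. ACAT2, AACS, PMVK, TM7SF2 and SCD had no probe set without that mark. The unmarked probe sets of IDI1 and SC5D gave -0.20 and -0.07, at means of 5.41 and 5.56, near the filter of 5. That of GGPS1 gave 0.30 (adjusted p = 0.091). The second bright IDI1 probe set, also marked, gave 0.32, and a dimmer marked one gave -0.13. The second ACACA probe set gave 0.26. With 1 array left out the calls of HMGCS1, AACS, PMVK, GGPS1, SC5D and ACACA could end, and against DMSO replicates 3 and 4 alone HMGCS1 stood at 0.18 (adjusted p = 0.27), AACS at 0.33 (adjusted p = 0.079) and GGPS1 at 0.14 (adjusted p = 0.16).

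**Figure D5:**
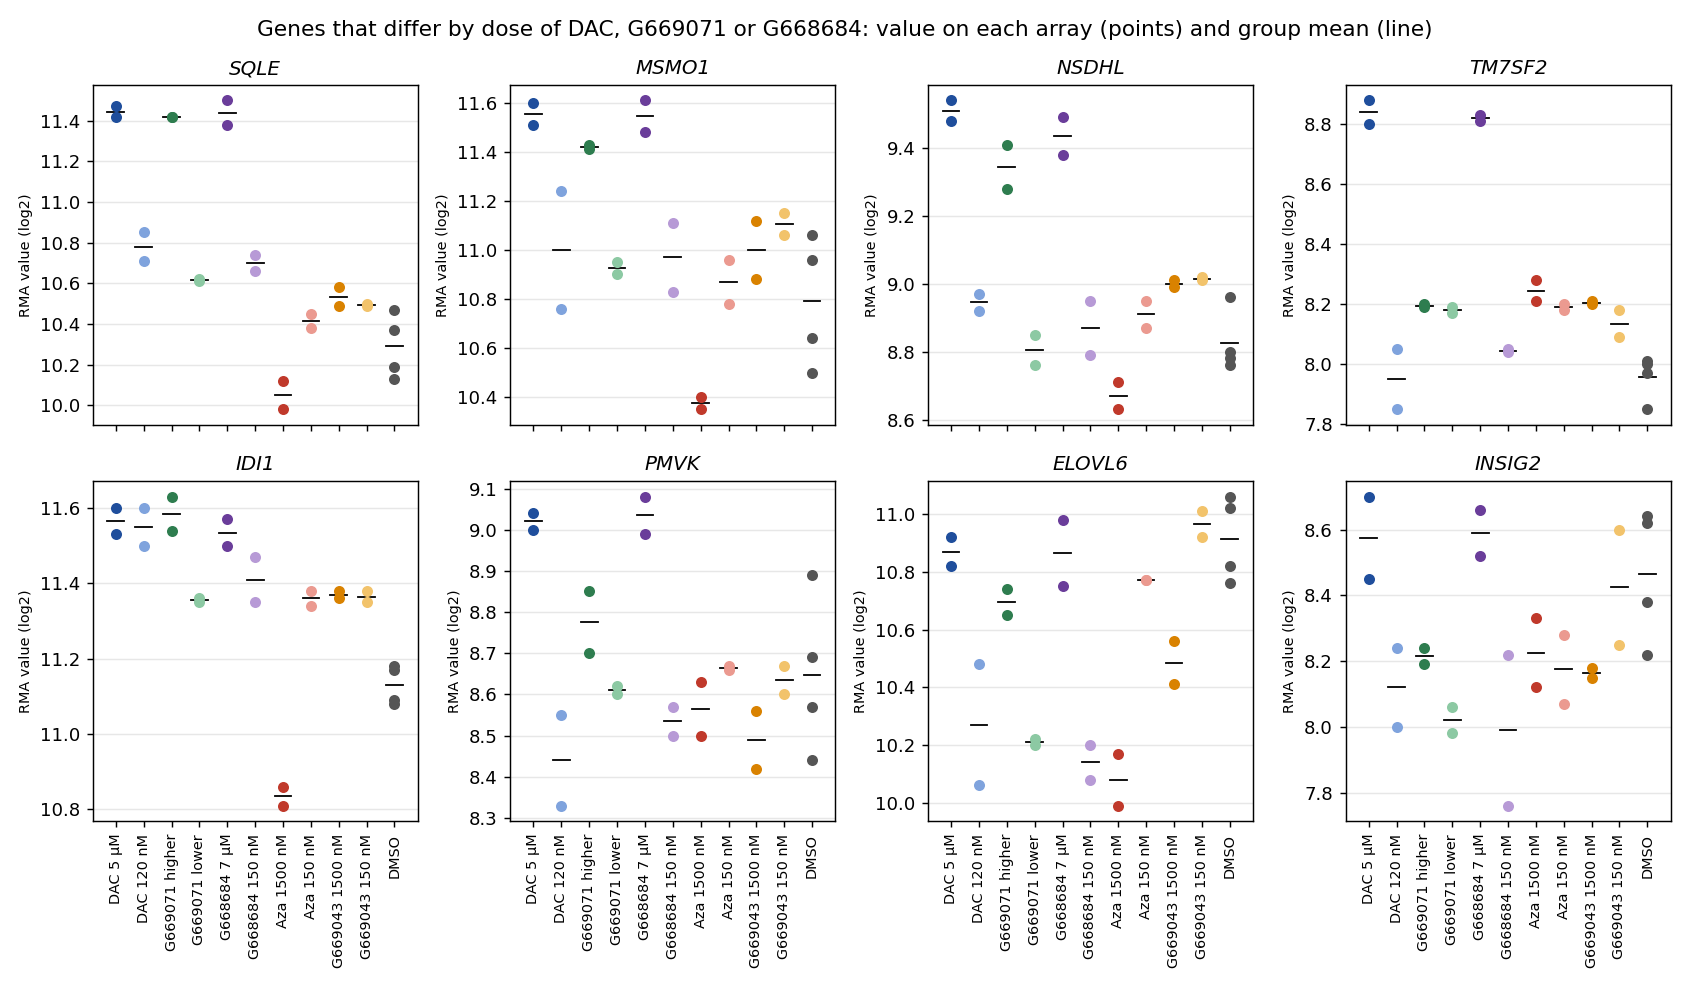
Level of 8 genes on each array (points, log2 RMA value) with the group mean (line), for the 10 treated groups and DMSO at the right. SQLE lies between 11.38 and 11.50 in the 3 higher-dose groups of DAC, G669071 and G668684, against at most 10.47 in DMSO, and ELOVL6 is lowest in their lower-dose groups and with Aza at 1500 nM.

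The higher doses of G669071 and G668684 cannot be matched to the DAC dose of 5 µM and are given side by side, all against the same DMSO arrays. With the higher dose of G669071 9 genes rose (15.8% of all genes did) and 3 fell (13.7% of all genes did), and with G668684 at 7 µM 13 rose (17.5% of all genes did) and 4 fell (14.7% of all genes did). SQLE stood at 11.42 on both G669071 arrays and at 11.38 and 11.50 with G668684, for fold changes of 1.13 ± 0.08 and 1.15 ± 0.08 (adjusted p = 1.1e-09 and 7.5e-10). MSMO1 stood at 11.41 and 11.43 with G669071 and at 11.61 and 11.48 with G668684 (0.63 and 0.76), above the DMSO arrays at 10.50 to 11.06. TM7SF2 reached 8.20 and 8.19 with G669071 (0.24 ± 0.07) but 8.83 and 8.81 with G668684 (0.86 ± 0.07), where DMSO lay between 7.85 and 8.01. HMGCS1 stood at 9.57 and 9.58 with G669071 (0.56 ± 0.13) and at 9.50 and 9.52 with G668684 (0.50 ± 0.13), above DMSO at 8.79 to 9.24. PMVK rose with G668684 (0.39) and was not called with G669071 (0.13), and MVD, the decarboxylase, rose with both (0.26 and 0.36).

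SCD stood at 12.32 and 12.37 with the higher dose of G669071 and at 12.10 and 12.17 with G668684 at 7 µM, below DMSO at 12.55 to 12.86 (fold changes -0.35 ± 0.08 and -0.56 ± 0.08). HSD17B7 also fell with both, by 0.33 and 0.37, and ACACA by 0.30 and 0.33. With the mean of its probe sets ACACA gave -0.07 and -0.06 (adjusted p = 0.37 and 0.48). SREBF1 stood at 8.61 and 8.73 with G669071 (-0.12, adjusted p = 0.42) and at 8.55 and 8.40 with G668684 (-0.32, adjusted p = 0.018). STARD4 rose with both, to 10.09 and 10.24 with G669071 and to 10.07 and 10.09 with G668684, against 9.59 to 9.83 in DMSO. INSIG1 (10.55 and 10.54, 10.36 and 10.25), INSIG2 (8.19 and 8.24, 8.52 and 8.66), SREBF2 (8.40 and 8.38, 8.28 and 8.26) and SCAP (8.13 and 8.27, 8.26 and 8.40), each with G669071 first and G668684 second, were not called. Without replicate 2 of G668684 at 7 µM the count of called genes was 11 in place of 17.

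At the lower doses fewer genes were called, and ELOVL6 led. With DAC at 120 nM 3 rose and 3 fell (9.68% and 9.68%, against 12.5% and 9.9% of all genes). With the lower dose of G669071 3 rose and 2 fell (9.68% and 6.45%, against 8.68% and 6.91% of all genes). The shares in these 2 groups were near those of all genes. With G668684 at 150 nM 2 rose and 6 fell (6.45% and 19.4%, against 10.7% and 10.4% of all genes). ELOVL6 stood at 10.06 and 10.48 with DAC at 120 nM, 10.20 and 10.22 with the lower dose of G669071 and 10.08 and 10.20 with G668684 at 150 nM, against 10.82, 10.76, 11.06 and 11.02 in DMSO. All 6 arrays lay below the DMSO range, with fold changes of -0.65, -0.70 and -0.77 ± 0.10 (adjusted p = 0.00011, 7.4e-05 and 1.6e-05). SQLE rose at these doses too, by 0.49, 0.33 and 0.41, at 10.71 and 10.85, 10.62 and 10.61, and 10.66 and 10.74 on the arrays in the same order. IDI1 rose by 0.42, 0.23 and 0.28, and HMGCS1 rose with DAC at 120 nM (9.17 and 9.69, 0.42 ± 0.13, adjusted p = 0.03), where its 2 arrays lay far apart and the lower was inside the DMSO range.

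INSIG2 stood at 7.98 and 8.06 with the lower dose of G669071 (-0.44 ± 0.14, adjusted p = 0.032) and at 7.76 and 8.22 with G668684 at 150 nM (-0.47 ± 0.14, adjusted p = 0.016), against 8.22, 8.38, 8.62 and 8.64 in DMSO. The G668684 arrays reached the lowest DMSO value. With DAC at 120 nM INSIG2 stood at 8.0 and 8.24 (-0.35, adjusted p = 0.081). SCD fell by 0.25 with DAC at 120 nM (12.35 and 12.54) and by 0.29 with G668684 at 150 nM (12.32 and 12.50), and gave -0.21 with the lower dose of G669071 (12.49 and 12.48, adjusted p = 0.095). With the mean of all SCD probe sets the first 2 values were -0.01 and -0.03 (adjusted p = 0.95 and 0.77). SREBF1, SREBF2, SCAP, INSIG1 and STARD4 were called at none of these 3 lower doses, with fold changes from -0.15 to 0.21. ELOVL6 kept its call with each array left out in all 3 comparisons, and the INSIG2 call with G668684 ended without replicate 1 (adjusted p = 0.42). The count with G668684 at 150 nM was 3 without its replicate 1, and that with the lower dose of G669071 was 1 without either of its arrays, 10 without DMSO replicate 1 and 3 without DMSO replicate 3.

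The doses of a compound were then set against each other, without the DMSO arrays. With DAC 10 genes were higher and 1 lower at 5 µM than at 120 nM (8.73% and 5.94% of all genes), with G669071 7 were higher and 0 lower at the higher dose (5.65% and 3.71%), and with G668684 10 were higher and 1 lower at 7 µM than at 150 nM (7.78% and 3.77%). TM7SF2 stood at 8.88 and 8.80 with DAC at 5 µM, against 8.05 and 7.85 at 120 nM (0.89 ± 0.08, adjusted p = 4.1e-07), and at 8.83 and 8.81 with G668684 at 7 µM, against 8.05 and 8.04 at 150 nM (0.77 ± 0.08, adjusted p = 2e-06). SQLE differed between the doses of each compound, by 0.67 for DAC, 0.81 for G669071 and 0.74 for G668684. NSDHL differed by 0.57, 0.54 (9.28 and 9.41 at the higher dose of G669071, against 8.85 and 8.76 at the lower) and 0.57. ACAT2, at 10.71 and 10.61 with DAC at 5 µM against 9.94 and 10.04 at 120 nM, and at 10.80 and 10.61 with G668684 at 7 µM against 9.86 and 9.91 at 150 nM, differed by 0.67 and 0.82, and with G669071 by 0.44. HMGCS1 (9.57 and 9.58 at the higher dose of G669071, against 9.09 and 9.04 at the lower) differed by 0.51 (adjusted p = 0.042).

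ELOVL6 was higher at the higher dose of all 3 compounds, with levels of 10.82 and 10.92 with DAC at 5 µM, against 10.06 and 10.48 at 120 nM (0.60 ± 0.12, adjusted p = 0.0017). For G669071 the difference was 0.48 (adjusted p = 0.013) and for G668684 0.72 (adjusted p = 0.00038). The DAC difference missed the threshold without replicate 1 at 120 nM (adjusted p = 0.054), and that of G669071 without any 1 of its 4 arrays (adjusted p = 0.051 to 0.12) and with the mean of all probe sets (0.30, adjusted p = 0.24). SREBF1 was lower at the higher dose of DAC and of G668684, at 8.37 and 8.36 with DAC at 5 µM, against 8.96 and 8.80 at 120 nM (-0.51 ± 0.11, adjusted p = 0.0039), and at 8.55 and 8.40 with G668684 at 7 µM, against 8.80 and 8.94 at 150 nM (-0.39 ± 0.11, adjusted p = 0.028). INSIG2 was higher at 7 µM than at 150 nM of G668684 (8.52 and 8.66, against 7.76 and 8.22, 0.60 ± 0.16, adjusted p = 0.016). The count for DAC was 7 without replicate 1 at 120 nM, that for G668684 was 7 without either array at 7 µM or without replicate 1 at 150 nM, and that for G669071 was 2 to 4 without any 1 of its arrays.

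Across the 10 comparisons with DMSO, which share those 4 arrays, 26 of the 31 genes were called at least 1 time and MVK, FDPS, SCAP, ACSS2 and FADS2 were not called. IDI1 was called in all 10, higher in 9 and lower with Aza at 1500 nM. Both of its bright probe sets carry that mark, and its probe set without it, at a mean of 5.41, had fold changes of -0.21 to 0.03 and no call. SQLE was called higher in 6 comparisons and lower in 1, SCD lower in 6, and ELOVL6 lower in 5. Over the 24 arrays the levels of STARD4 and HMGCS1 correlated at r = 0.92, SQLE and NSDHL at 0.92, SQLE and MSMO1 at 0.91 and INSIG1 and HMGCS1 at 0.90, where the median over all 465 pairs was 0.31 and the lowest -0.65. SCD was closest to ACACA (0.86), LSS (0.80) and HSD17B7 (0.78). These are descriptions over arrays that share their groups, their normalization and the DMSO pairs.

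Other genes of lipid metabolism were counted in lists written from general knowledge. With Aza at 1500 nM, where 8.13% of all genes rose and 9.18% fell, 1 of 9 genes of SREBP processing and sterol-regulated degradation rose and 1 fell, and of 18 other lipogenic genes 1 rose and 2 fell. LPIN1, a phosphatidate phosphatase, averaged 7.63 with Aza and 8.16 in DMSO (-0.52 ± 0.09, adjusted p = 0.00031). Of 15 genes of sterol ester, droplet and lysosomal sterol traffic 2 rose and 1 fell: LIPA, the lysosomal acid lipase, gave -0.47 ± 0.06 (adjusted p = 1.8e-05), and PLIN2, a lipid droplet coat protein, 0.45 ± 0.07 (adjusted p = 2e-04). Of 8 LXR targets and efflux genes 0 rose and 2 fell, of 12 genes of isoprenoid use 4 rose and 3 fell, and of 17 genes of fatty acid oxidation 0 rose and 4 fell, ECI2 by 0.39 and HADH by 0.32. Between G669043 and Aza at 1500 nM 2 genes of all these lists were called, both higher with G669043 (1.47% of all genes were, and 0.659% were lower). They were MYLIP (0.47), 1 of 8 LXR targets and efflux genes, and LIPA (0.31), 1 of 15 of sterol traffic. None of the 9, 18, 12 and 17 genes of the other lists was called. Taken over all lists, the share called was near that of all genes.

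With DAC at 5 µM, where 18% of all genes rose and 14.2% fell, the list of sterol ester, droplet and lysosomal sterol traffic had 9 of 15 genes higher and 0 lower, with a median of 0.26. NCEH1, a cholesteryl ester hydrolase, averaged 8.65 with DAC and 7.58 in DMSO (1.07 ± 0.30, adjusted p = 0.0099), and NPC1, which exports cholesterol from lysosomes, averaged 10.04 and 9.15 (0.89 ± 0.08, adjusted p = 1.8e-08). In SREBP processing 2 of 9 rose and 3 fell, with ERLIN1, an endoplasmic reticulum scaffold protein, at -1.04 ± 0.07 (adjusted p = 2.3e-10) and MBTPS2, a protease that releases SREBPs, at -0.60 ± 0.08 (adjusted p = 3.8e-06). Of the other lipogenic genes 1 of 18 rose and 5 fell, of LXR targets and efflux genes 1 of 8 rose and 1 fell, of isoprenoid use 2 of 12 rose and 5 fell, and of fatty acid oxidation 3 of 17 rose and 3 fell (17.6% each, near the share of all genes). With G669043 at 1500 nM, where 5.88% of all genes rose and 3.25% fell, these lists had, in the same order from sterol traffic on, 4 genes higher and 0 lower, 1 and 2, 1 and 0, 0 and 0, 2 and 2, and 0 and 2. DGAT1, which makes triglyceride, was among those higher with G669043 (0.52 ± 0.08, adjusted p = 0.00028).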

How the data were processed

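RNA of HCT116 cells was measured on 24 HG-U133 Plus 2.0 arrays in 11 groups, taken from the labels. The deposited values are linear intensities from RMA (background correction, quantile normalization and summary of probes) in Expression Console (Affymetrix, version 1.1), per the submitters' processing notes; each deposited intensity was 2 to the power of a log2 value rounded at the second decimal, and no detection calls were used. The intensities were log2 transformed here. Of the probe sets that are not the 62 controls, 41091 name 1 gene, 1801 several and 11721 are unnamed in the platform annotation given. Genes with a log2 value of at least 5 on 2 arrays were kept on their brightest probe set, 18055 in all. limma 3.58.1 in R 4.3.3 fitted a mean per group over all arrays with an intensity trend (13 residual and 6.14 prior degrees of freedom), and 17 differences were tested with Benjamini-Hochberg adjustment over all genes in each. The fit was tested on simulated data. Alternatives changed the filter, the choice of probe sets, the scaling, the trend, a replicate block, the DMSO arrays and each array in turn. Members and lists were chosen with earlier results of these data known. All members could be named, with values on every array for SCD, STARD4, INSIG1, INSIG2, SREBF1, SREBF2, SCAP and the called members of largest fold change, and at most 2 called genes of each other list. Figures used Python 3.11.15 and matplotlib 3.10.9.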

Additional observations from a re-analysis of the deposited data

Results flagged for a closer look

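The difference between G669043 and Aza at 1500 nM passed the test of the difference itself (limma, adjusted over all genes, 2 arrays each) for 16 of the 31 genes, all higher with G669043. The log2 differences were 1.33 for SCD, 1.09 for INSIG1, 0.92 for STARD4, 0.81 for HMGCS1, 0.67 for FASN, 0.62 for MSMO1, 0.60 for ACAT2, 0.58 for SREBF1, 0.54 for IDI1, 0.52 for LSS, 0.49 for SQLE, 0.46 for ACACA, 0.44 for HSD17B7, 0.43 for DHCR7, 0.41 for SREBF2 and 0.33 for NSDHL. Those of STARD4, ACAT2, IDI1 and SCD stood with each array left out, but IDI1 gave 0.00 on its probe set not marked as matching several transcripts and 0.21 with the mean of all probe sets (adjusted p = 0.99 and 0.10). That IDI1 probe set had a mean of 5.41, near the filter of 5. SCD, FASN, ACAT2, HSD17B7 and DHCR7 had only marked probe sets. With the mean of their probe sets SREBF2, FASN and LSS gave 0.19, 0.25 and 0.28 (adjusted p = 0.35, 0.16 and 0.1). Under that setting NSDHL and MSMO1 gave 0.27 and 0.62 and also missed the threshold (adjusted p = 0.053 and 0.051). No DMSO array lay apart from the other 3 by Dixon's criterion in any of the 31 genes.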

How the results depend on the processing

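Of the 152 calls of single genes in 17 comparisons, 68 stood with each array left out. Under every alternative that could be run on the gene 55 stood. SCD, ACAT2, TM7SF2, HSD17B7, DHCR7, PMVK, AACS, MVD, FASN and ACLY had only probe sets marked as able to match more than 1 transcript. Leaving out marked probe sets therefore did not test their calls. Of the calls it did test, 81 stood, 11 missed the threshold and 10 turned their sign. The counts of called genes moved as follows, main value after "against". Without probe sets marked as able to match more than 1 transcript, which leaves fewer members, the counts were 7 with DAC at 5 µM (against 15), 6 and 3 with G669071 (against 12 and 5), 7 and 5 with G668684 (against 17 and 8), 11 and 0 with Aza (against 18 and 1), 2 and 0 with G669043 (against 6 and 1), 9 for G669043 minus Aza at 1500 nM (against 16), and between doses 6, 4, 7 and 10 with DAC, G669071, G668684 and Aza (against 11, 7, 11 and 16). The signs of IDI1 turned there, to -0.20 and -0.07 with DAC, -0.21 with the higher dose of G669071, -0.18 with G668684 at 7 µM, -0.11 with Aza at 150 nM, -0.12 and -0.11 with G669043 and -0.23 between the G669071 doses, and those of SC5D to -0.07 with DAC at 5 µM and -0.11 with G668684 at 7 µM. The IDI1 and SC5D probe sets left there had means of 5.41 and 5.56, near the filter of 5. With the mean of all probe sets ACACA stood at 0.02 with DAC at 5 µM, and the counts were 10 for G669043 minus Aza at 1500 nM, 3 with G669043 at 1500 nM, 4 between its doses, and 0 with G669043 and with Aza at 150 nM. Fitted on the arrays compared alone, the counts were 3 with DAC at 120 nM, 1 with the lower dose of G669071, 3 with G668684 at 150 nM, 10 with Aza at 1500 nM, 0 with Aza at 150 nM and with both G669043 doses, 7 for G669043 minus Aza at 150 nM, and 6, 15 and 7 between the doses of DAC, G669071 and G668684. With DMSO replicates 1 and 2 alone they were 10 with DAC at 120 nM, 3 with the lower dose of G669071, 2 with Aza at 150 nM and 13 with G669043 at 150 nM, and with replicates 3 and 4 alone 16 with the lower dose of G669071 and 2 with Aza at 150 nM. Quantile normalization again, or no trend, gave 0 with Aza and with G669043 at 150 nM; median centring gave 0 with Aza and 2 with G669043 at 150 nM, and 1 between the G669043 doses. Same-numbered replicates correlated at -0.39 to 0.61 over 45 pairs of treated groups, 17 of them over 0.1, and at 0.24 to 0.61 among the DAC, G668684 and G669043 1500 nM groups. Since not every pair passed 0.1, the numbers were not taken as pairs. A replicate block gave counts of 10 with DAC at 120 nM, 2 with Aza at 150 nM, 10 and 13 with G669043 at 1500 and 150 nM, and 11, 17 and 4 between the doses of G669071, G668684 and G669043. SCD was not called under the block with DAC at 120 nM (-0.14) or G668684 at 150 nM (-0.17). Replicate numbers 3 and 4 occur only in DMSO, so the block takes those arrays out of the DMSO mean. These SCD values are therefore the same as against DMSO replicates 1 and 2 alone, and the block is no separate check there. With each array left out in turn the counts ranged over 10 to 17 and 5 to 7 with DAC at 5 µM and 120 nM, 9 to 13 and 1 to 10 with G669071, 11 to 18 and 3 to 10 with G668684, 10 to 18 and 0 to 2 with Aza, 1 to 6 and 0 to 3 with G669043, 4 to 14 and 0 to 0 for G669043 minus Aza, and 7 to 13, 2 to 4, 7 to 10, 6 to 13 and 0 to 1 between the doses of DAC, G669071, G668684, Aza and G669043. Apart from this use of the DMSO arrays under the block, the cause of these shifts was not tested.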
